A study of Neurospora crassa with 12 samples.

Results

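The comparison described here was between the Δclr-5 mutant and the WT strain of the filamentous fungus Neurospora crassa, both grown on Avicel plus histidine. Its members were the 4 libraries whose column titles name the strain and histidine, 2 cultures of Δclr-5 and 2 cultures of WT, of the 12 libraries in the series, and it covered all genes of the count table. Avicel is a microcrystalline cellulose, and was given at 2% as the carbon source together with 50 mM histidine as the only nitrogen source. The mutant carried a deletion of NCU05383, named clr-5, and the WT strain was FGSC 2489. No other allele or agent was named for either strain, and the labels gave mycelium as the cell type for both. Mycelia had been precultured in glucose medium and were then shifted to the Avicel medium, for 8 h by the labels, where the written methods give 4 h. The other 8 libraries came from the same strains on Avicel in standard medium with ammonium nitrate and on Avicel plus leucine, again with 2 cultures per strain and medium. All 12 were used to estimate the spread between cultures. A single mutant strain was sequenced, and no complemented strain was among these libraries.

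N. crassa degrades cellulose with secreted cellobiohydrolases and endoglucanases that act on the chains, lytic polysaccharide monooxygenases that cleave crystalline cellulose by oxidation, and β-glucosidases that release glucose from cellobiose. These genes are silent on glucose and are induced by cellodextrins, which are taken up by the transporters CDT-1 and CDT-2, through the zinc cluster transcription factors CLR-1 and CLR-2. Secreted enzymes are folded in the endoplasmic reticulum (ER), so chaperone and translocation genes often follow the secretory load. Histidine can serve as a nitrogen source only after its nitrogen has been released or transferred to glutamate and glutamine, from which the other amino acids are made. The question asked with this medium was how the loss of Clr-5 affects the transcriptome when an amino acid is the sole nitrogen source.

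Total counts per library ranged from 16797962 to 20381308 over the 12 libraries, with a median of 18400977. Values are given as CPM, counts scaled to a common library size with edgeR's trimmed mean of M-values (TMM), and they are not corrected for gene length. Fold changes are on the log2 scale, Δclr-5 over WT, so that a negative value means a lower transcript level in Δclr-5. Of 9730 genes, 8805 passed the filter on low counts and were tested, and 925 were not. Calls required an adjusted p under 0.05 and a log2 fold change of 0.5 or more in either direction. All adjusted p given below come from edgeR's quasi-likelihood test with Benjamini-Hochberg adjustment over the 8805 genes, and every standard error (SE) is approximate. The WT cultures on histidine differed from each other more than the Δclr-5 cultures did. Of 7023 genes with a mean log2 CPM of at least 3, 14 were more than 2-fold apart between the Δclr-5 cultures and 106 between the WT cultures. Of those 106, 91 were higher in WT culture 1 and 15 in WT culture 2. Calls that depended on a single culture are therefore named with the value found without it.

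The targeted gene was checked first. The clr-5 gene (chromosome II, from 1471066 to 1475393 on the NC12 assembly) had 38 and 27 counts in the Δclr-5 libraries, against 1035 and 808 counts in the WT libraries. This corresponded to 1.63 and 1.31 CPM in Δclr-5 and 47.5 and 39.9 CPM in WT, with no overlap between the strains. The log2 fold change was -4.88 (SE 0.22, adjusted p = 4.91e-07). The strain labels of all 4 libraries therefore matched the level of the deleted gene.

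On histidine, Δclr-5 had lower transcript levels than WT for 1125 genes (12.8% of those tested) and higher levels for 728 (8.27%), 21% in all. At an unadjusted p under 0.05 there were 3095 genes. The median log2 fold change was -0.95 for the genes called lower, 1.05 for the genes called higher and -0.027 over all tested genes. A fold of at least 4 was reached by 134 of the genes called lower and by 141 of those called higher. The values of both Δclr-5 cultures lay on one side of both WT values for all 1853 called genes, as they did for 67.9% of all tested genes. Leaving out Δclr-5 culture 1 gave 549 genes lower and 363 higher, and leaving out its culture 2 gave 599 lower and 395 higher. Leaving out WT culture 1 gave 821 lower and 466 higher, and leaving out WT culture 2 gave 817 lower and 421 higher. The RNA came from whole mycelia, so fewer cells of a kind and less RNA per cell cannot be told apart.

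**Figure D1:**
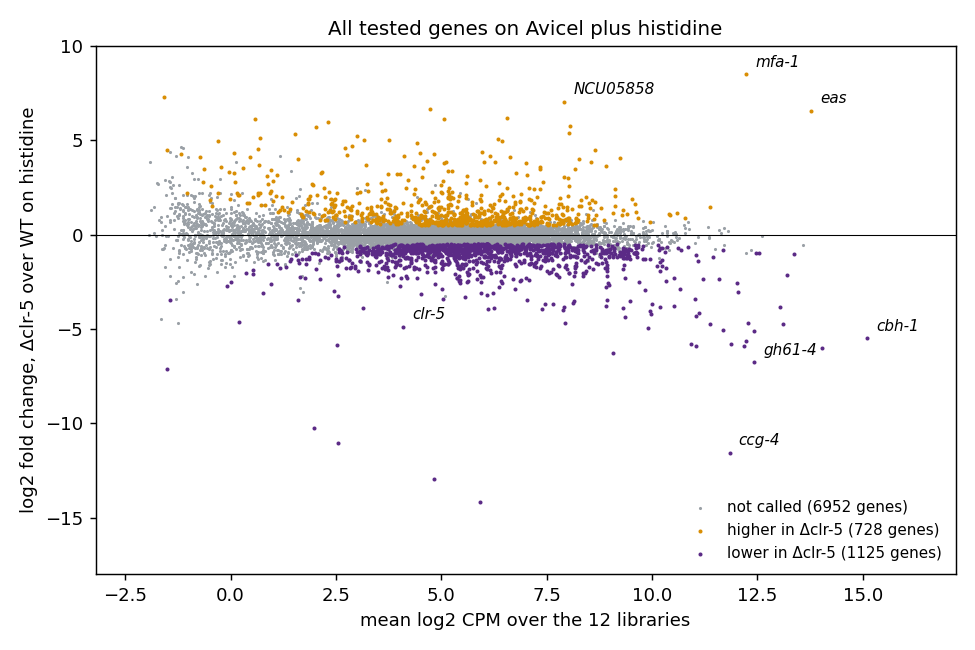
Each point is a tested gene, with its mean log2 CPM over the 12 libraries on the x axis and its log2 fold change on histidine, Δclr-5 over WT, on the y axis. The 1125 genes called lower include cbh-1 and gh61-4 and the 728 genes called higher include eas, while the lowest points, ccg-4 among them, are fitted values of genes with 5 or fewer counts over the Δclr-5 libraries and give no exact fold.

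Most cellulase genes were strongly down-regulated in Δclr-5 on histidine. Of the 9 tested members of the 10 listed cellulase genes, 7 were lower, none was higher and 2 were not called, against 12.8% lower among all genes. The median log2 fold change of the list was -4.32. The cellobiohydrolase gene cbh-1 (NCU07340; chromosome IV, from 4311049 to 4314145) had 143 and 357 CPM in Δclr-5, against 17655 and 4971 CPM in WT. Both WT values were far above the higher Δclr-5 value, although WT culture 1 itself stood well above WT culture 2. Its log2 fold change was -5.50 (SE 0.72, adjusted p = 0.000361). It took 0.017% and 0.042% of all counts in the Δclr-5 libraries and 2.09% and 0.585% in the WT libraries. The cellobiohydrolase gene gh6-2 had 31.6 and 56.7 CPM in Δclr-5, against 4892 and 826 CPM in WT, a log2 fold change of -6.02 (SE 0.85, adjusted p = 0.000792). The endoglucanase gene gh5-1 had 43.6 and 110.4 CPM in Δclr-5, against 4199 and 1181 CPM in WT, a log2 fold change of -5.13 (SE 0.70, adjusted p = 0.000655). The strains did not overlap for these genes, as for all 1853 called genes and 67.9% of all tested genes. In Δclr-5 the higher value was always in culture 2.

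The other called cellulase genes followed the same direction with smaller changes. The family 6 gene gh6-3 had 27.1 and 35 CPM in Δclr-5, against 1256 and 397 CPM in WT, a log2 fold change of -4.73. The endoglucanase gene gh7-1 had 21.0 and 30.2 CPM in Δclr-5, against 715 and 307 CPM in WT, a log2 fold change of -4.32. The family 7 gene gh7-2 was lower at -2.66. These 3 genes did not overlap between the strains, as was so for every called gene. The gene gh7-4, at 9.26 and 6.40 CPM in Δclr-5 and 18.2 and 15.8 CPM in WT, was lower at -1.11 (adjusted p = 0.0236), but this call was lost whichever culture was left out (adjusted p = 0.0511 without Δclr-5 culture 1, 0.183 without Δclr-5 culture 2, 0.106 without WT culture 1 and 0.0596 without WT culture 2). The genes gh45-1 and gh6-1 had log2 fold changes of -0.99 and 0.12 and were not called. With edgeR on only the 4 histidine libraries, 4 of the 9 cellulase genes were called, and cbh-1, gh6-2 and gh5-1 lost their calls (adjusted p = 0.0581, 0.0939 and 0.08). DESeq2 on the same 4 libraries called 7.

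The lytic polysaccharide monooxygenase (LPMO) genes, which are named gh61 in N. crassa, split into a part that fell and a part that was weakly expressed in both strains. The list holds the genes with that symbol in the reference table. It is shorter than the number of LPMO genes the paper gives for the genome, so it is not complete. Of its 11 members, all tested, 7 were lower (63.6%, against 12.8% of all genes) and none was higher. The median log2 fold change was -3.43. The largest decrease was that of gh61-4 (NCU01050; chromosome V, from 2769232 to 2770004), with 1.54 and 4.36 CPM in Δclr-5, against 500.4 and 134 CPM in WT. Its log2 fold change was -6.75 (SE 0.76, adjusted p = 0.000183). Among the more abundant members, gh61-1 had 30.2 and 64.6 CPM in Δclr-5, against 3409 and 1373 CPM in WT, a log2 fold change of -5.66. The gene gh61-5 had 14.3 and 39.1 CPM in Δclr-5, against 2435 and 771 CPM in WT, a log2 fold change of -5.91. Decreases were also found for gh61-3 (-5.92), gh61-7 (-5.82), gh61-6 (-3.43) and gh61-2 (-2.57). None of these 7 genes overlapped between the strains, as was so for every called gene and for 67.9% of all tested genes. With 1 culture left out at a time, the median log2 fold change of the list lay between -4.12 and -2.29. The genes gh61-8, gh61-9, gh61-10 and gh61-11 had between 0.504 and 38.8 CPM in every culture, log2 fold changes from 0.02 to 0.49, and were not called. With edgeR on only the 4 histidine libraries 3 LPMO genes were called, and gh61-4, gh61-5, gh61-6 and gh61-7 lost their calls (adjusted p from 0.0649 to 0.131). DESeq2 on these libraries called 7. Summed over the list, LPMO transcripts made up 139 and 211 CPM in Δclr-5 and 8228 and 2887 CPM in WT, and cellulase transcripts 308 and 633 CPM in Δclr-5 and 28964 and 7813 CPM in WT.

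**Figure D2:**
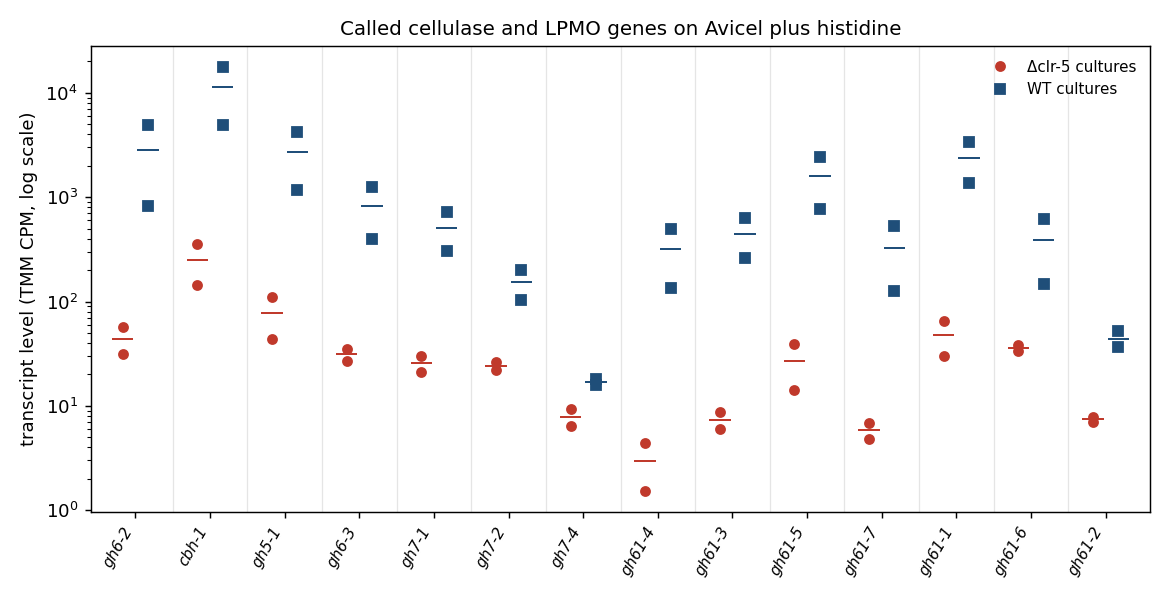
CPM on a log axis of the 7 cellulase and 7 LPMO genes called lower on histidine, 1 point per culture, Δclr-5 and WT. Every Δclr-5 culture lies below both WT cultures, as for cbh-1 with 143 and 357 CPM against 17655 and 4971 CPM, and WT culture 1 lies above WT culture 2 throughout.

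The enzymes that act on cellobiose changed less evenly. Among 11 genes of β-glucosidases and cellobiose dehydrogenases, 5 were lower (45.5%, against 12.8% of all genes) and none was higher. The median log2 fold change was -0.64. The intracellular β-glucosidase gene gh1-1 had 398 and 585 CPM in Δclr-5, against 5216 and 2796 CPM in WT, a log2 fold change of -3.03 (SE 0.35, adjusted p = 0.000159). The cellobiose dehydrogenase gene cdh-1, whose product supplies electrons to LPMOs, had 8.36 and 9.84 CPM in Δclr-5, against 422 and 45.8 CPM in WT. Its log2 fold change of -4.68 (SE 0.95, adjusted p = 0.00681) rested on WT cultures that were far apart, and the call was lost without Δclr-5 culture 1 (adjusted p = 0.0706) or Δclr-5 culture 2 (adjusted p = 0.0602). The β-glucosidase gene gh3-6 was lower at -3.67 (adjusted p = 0.00355) and gh3-5 at -0.88 (adjusted p = 0.00149). The gene gh3-4 was lower at -1.76 (adjusted p = 0.00816), which was lost without Δclr-5 culture 1 (adjusted p = 0.0776) or WT culture 1 (adjusted p = 0.0551). The abundant β-glucosidase gene gh3-3, at 974 and 1108 CPM in Δclr-5 and 1534 and 1240 CPM in WT, was not called (log2 fold change -0.41, adjusted p = 0.214). On only the 4 histidine libraries, edgeR called neither gh3-6 (adjusted p = 0.138) nor cdh-1 (adjusted p = 0.169). The list thus held 3 called genes when Δclr-5 culture 1 was left out, and 4 when Δclr-5 culture 2 or WT culture 1 was.

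Genes for hemicellulose degradation were lower in 12 of 16 cases (75%, against 12.8% of all genes). They were higher in 2 (12.5%, against 8.27%), and the median log2 fold change was -1.30. The xylanase gene gh10-1 had 19.4 and 34.7 CPM in Δclr-5, against 1450 and 361 CPM in WT, a log2 fold change of -5.06 (SE 0.65, adjusted p = 0.000409). The xylanase gene gh11-2 had 121 and 209.7 CPM in Δclr-5, against 3055 and 1607 CPM in WT, a log2 fold change of -3.82 (SE 0.41, adjusted p = 0.000109). Xylanases cut the xylan backbone that accompanies cellulose in plant cell walls, and these genes kept the strains well apart. Decreases were also found for gh11-1 (-4.23), gh10-3 (-3.88), NCU00972 (-3.67), annotated as an arabinogalactan endo-galactosidase, and gh2-1 (-2.88). The most abundant xylanase gene in Δclr-5, gh10-2, fell less, with 1343 and 1483 CPM in Δclr-5, against 3593 and 3767 CPM in WT, a log2 fold change of -1.38. The acetylxylan esterase genes NCU05159 and NCU00710 were lower at -4.73 and -3.69. With edgeR on only the 4 histidine libraries, calls were lost for gh10-1 (adjusted p = 0.0803), gh11-1 (0.075), gh10-3 (0.0704) and NCU00710 (0.117). In the other direction, the β-glucuronidase gene NCU00937 had 55.6 and 44.2 CPM in Δclr-5, against 18.2 and 25.2 CPM in WT (log2 fold change 1.20), and its call was lost without Δclr-5 culture 1 (adjusted p = 0.0613) or WT culture 1 (adjusted p = 0.0563). The endo-arabinase gene NCU00852, at 4.63 and 2.33 CPM in Δclr-5 and 0.138 and 0.148 CPM in WT, was higher at 4.55, and its call was lost without Δclr-5 culture 1 (adjusted p = 0.0501), WT culture 1 (adjusted p = 0.0578) or WT culture 2 (adjusted p = 0.0554).

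Enzymes for starch and pectin did not share this decrease. Of 14 such genes, 1 was lower and 1 was higher (7.14% each, against 12.8% and 8.27% of all genes). The median log2 fold change was 0.33. The glucoamylase gene gla-1, whose product releases glucose from starch, had 1250 and 1217 CPM in Δclr-5, against 313 and 459 CPM in WT, a log2 fold change of 1.68 (SE 0.35, adjusted p = 0.00747). The call of gla-1 was lost without WT culture 1 (adjusted p = 0.0638). The gene gh13-6 was lower at -0.53, and this call was lost whichever culture was left out (adjusted p from 0.0702 to 0.173).

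Of 12 sugar transporter genes, 3 were lower (25%, against 12.8% of all genes) and 1 was higher (8.33%, against 8.27%). The median log2 fold change was 0.09. The cellodextrin transporter gene cdt-1 had 826 and 1051 CPM in Δclr-5, against 6482 and 4840 CPM in WT, a log2 fold change of -2.59 (SE 0.29, adjusted p = 0.000128). The second cellodextrin transporter gene, cdt-2, had 4998 and 6214 CPM in Δclr-5, against 12624 and 10447 CPM in WT, a log2 fold change of -1.04 (SE 0.25, adjusted p = 0.0119). The cdt-2 call was lost without Δclr-5 culture 1 (adjusted p = 0.129), Δclr-5 culture 2 (adjusted p = 0.0504) or WT culture 1 (adjusted p = 0.054). The monosaccharide transporter gene NCU00809 was lower at -1.04, lost without Δclr-5 culture 1 (adjusted p = 0.0888). NCU01813, annotated as a high-affinity glucose transporter, was higher at 0.55, and was lost without Δclr-5 culture 1 (adjusted p = 0.0904), Δclr-5 culture 2 (adjusted p = 0.0625) or WT culture 1 (adjusted p = 0.0849). The glucose transporter gene hgt-1 was not called (log2 fold change -0.39, adjusted p = 0.195).

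Among 8 transcription factor genes that regulate plant cell wall degradation, 2 were lower and 1 was higher. These were 25% and 12.5% of the list, against 12.8% and 8.27% of all genes. The gene clr-2, the inducer of cellulase genes, had 8.88 and 12.5 CPM in Δclr-5, against 174 and 68.2 CPM in WT, a log2 fold change of -3.51 (SE 0.54, adjusted p = 0.00149). The clr-2 call held without any 1 culture, but with edgeR on only the 4 histidine libraries the adjusted p was 0.0517. Its partner clr-1, which acts upstream of clr-2, had 116 and 139 CPM in Δclr-5 and 255 and 164 CPM in WT, and was not called (log2 fold change -0.72, adjusted p = 0.0883). The gene vib-1, which is needed for cellulase production, was lower at -0.93 (adjusted p = 0.0364), a call that was lost without Δclr-5 culture 1 (adjusted p = 0.202), Δclr-5 culture 2 (adjusted p = 0.118) or WT culture 1 (adjusted p = 0.192). The xylanase regulator gene xlr-1 (-0.46), the carbon catabolite repressor gene cre-1 (0.68) and col-26 (0.03) were not called. The gene rca-1, related to the conidiation regulator FlbD of Aspergillus nidulans, had 415 and 440.5 CPM in Δclr-5, against 162 and 175 CPM in WT, a log2 fold change of 1.34 (adjusted p = 0.00751), lost without WT culture 1 (adjusted p = 0.0546).

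Genes of protein translocation and folding in the ER moved the opposite way from the secreted enzymes. Of 7 such genes, which the study named because they were lower in Δclr-5 on the ammonium nitrate medium, 4 were higher and none was lower in Δclr-5 on histidine, against 8.27% higher among all genes, and their median log2 fold change was 0.80. The gene grp78, which encodes the main Hsp70 chaperone of the ER lumen and was listed with the heat shock proteins, had 1393 and 953 CPM in Δclr-5, against 558 and 277 CPM in WT, a log2 fold change of 1.49 (SE 0.39, adjusted p = 0.0193). NCU09485, annotated as the chaperone HSP70-6, had 246 and 188 CPM in Δclr-5, against 92.4 and 57.1 CPM in WT, a log2 fold change of 1.54 (SE 0.36, adjusted p = 0.0118). NCU09223, which encodes the protein disulfide isomerase PdiA, had 935 and 731 CPM in Δclr-5, against 520.1 and 296 CPM in WT, a log2 fold change of 1.03 (SE 0.33, adjusted p = 0.0437). Culture 1 was the higher of the pair in both strains for these genes. The strains did not overlap, as was so for 67.9% of all tested genes. The SEC61 genes NCU04127 and NCU08379, for the channel through which proteins enter the ER, had increases of 0.94 (adjusted p = 0.00579) and 0.65 (adjusted p = 0.0283). NCU00169, encoding SEC63, had a log2 fold change of 0.80 (adjusted p = 0.0629), NCU09265, encoding the calnexin CNX-1, 0.67 (adjusted p = 0.23), and NCU06333, encoding SEC62, -0.11 (adjusted p = 0.799), and none of them was called.

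These ER calls depended on the cultures. Of the 7 genes none was called without Δclr-5 culture 1 or without WT culture 2, 3 were called without Δclr-5 culture 2 and 5 without WT culture 1. Without WT culture 2, the log2 fold changes of grp78, NCU09485, NCU09223, NCU04127 and NCU08379 were 1.07, 1.23, 0.68, 0.75 and 0.44, all still positive. Without Δclr-5 culture 1 they were 1.19, 1.33, 0.84, 0.73 and 0.43. The adjusted p of grp78 was 0.143 without Δclr-5 culture 1 and 0.129 without WT culture 2. On ammonium nitrate, the medium on which the genes were chosen for being lower, 6 of the 7 were lower with a median log2 fold change of -1.10, which is a description only. On leucine, 6 of 7 were lower with a median of -1.16 (10.7% of all genes were lower). The fold of grp78 was -1.40 on ammonium nitrate and -1.72 on leucine. The difference of the Δclr-5 effect was tested by an interaction term. It was positive for 6 of the 7 genes between histidine and ammonium nitrate, where the choice of the genes favours a positive value, so that this count is not independent evidence. Between histidine and leucine it was positive for 6 of 7 (4.88% of all genes). Leaving out 1 histidine culture at a time left 4 to 7 genes with a called difference in each of these contrasts. NCU06333 was the gene with no called difference.

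**Figure D3:**
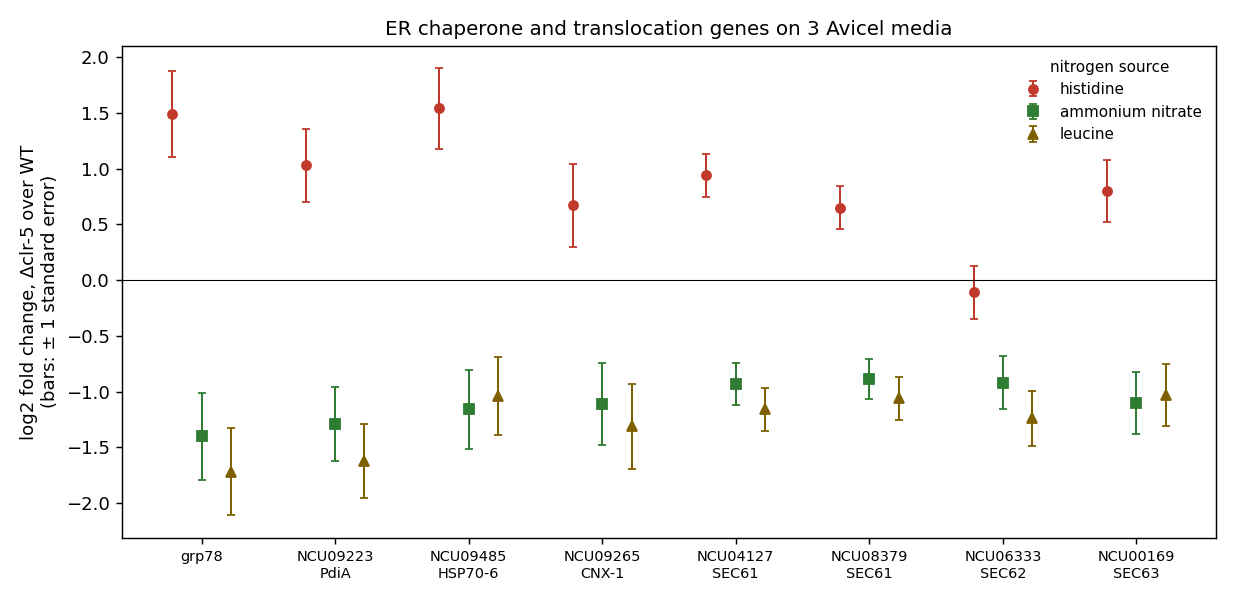
Log2 fold changes, Δclr-5 over WT, of grp78 and the 7 ER genes on Avicel plus histidine, with ammonium nitrate and plus leucine, with bars of 1 SE on either side. On histidine grp78 stands at 1.49, against -1.40 on ammonium nitrate and -1.72 on leucine, and only NCU06333 is below 0 on all 3 media.

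Some heat shock genes were higher, while proteasome genes changed little. Of 11 heat shock proteins, among them the ER chaperone grp78, 3 were higher (27.3%, against 8.27% of all genes) and none was lower, with a median log2 fold change of 0.24. The small heat shock protein gene hsp30 had 110.1 and 112 CPM in Δclr-5, against 37.6 and 63.6 CPM in WT, a log2 fold change of 1.14 (adjusted p = 0.00775), lost without WT culture 1 (adjusted p = 0.0523). The disaggregase gene hsp98 was higher at 1.06 (adjusted p = 0.0174) and lost its call whichever culture was left out (adjusted p from 0.0641 to 0.0991). Among 18 proteasome genes, 1 was called, and the median was 0.07. This was rpn-4, named after the yeast activator of proteasome genes, at 296 and 327 CPM in Δclr-5 and 95.1 and 94.0 CPM in WT (log2 fold change 1.72, adjusted p = 0.0101). Its call was lost without Δclr-5 culture 2 (adjusted p = 0.056), WT culture 1 (adjusted p = 0.0657) or WT culture 2 (adjusted p = 0.0713). The other 17 proteasome genes lay between -0.26 and 0.29.

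The genes of amino acid breakdown given here differed sharply between members, and no list of histidine breakdown genes was made. NCU11365, an aminotransferase gene assigned to histidine metabolism, had 163 and 177 CPM in Δclr-5, against 681 and 737 CPM in WT, a log2 fold change of -2.06 (SE 0.15, adjusted p = 1.01e-05). The L-amino acid oxidase gene lao had 19.1 and 18.3 CPM in Δclr-5, against 113 and 78.0 CPM in WT, a log2 fold change of -2.35 (SE 0.17, adjusted p = 1e-05). Both were called without any 1 culture. In contrast, NCU01402, annotated as indoleamine 2,3-dioxygenase, an enzyme of tryptophan breakdown, was among the most abundant transcripts in both strains, with 17360 and 18510 CPM in Δclr-5, against 17191 and 19955 CPM in WT. These levels overlapped, and took 2.07% and 2.18% of the counts in Δclr-5 and 2.03% and 2.35% in WT (log2 fold change -0.05, adjusted p = 0.967). Of the 5 genes listed for aromatic breakdown and amino acid oxidases, these were 3, and the other 2 were not called. NCU03607, encoding a 3-hydroxyaspartate dehydratase, had 32.8 and 33.8 CPM in Δclr-5, against 137 and 141 CPM in WT, a log2 fold change of -2.06 (SE 0.16, adjusted p = 1.5e-05).

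Histidine biosynthesis itself was little changed. Of 4 genes, 1 was lower (25%, against 12.8% of all genes). This was his-2, which encodes ATP phosphoribosyltransferase, the first enzyme of the pathway, with 20.6 and 23.0 CPM in Δclr-5, against 37.1 and 37.9 CPM in WT. Its log2 fold change was -0.78 (SE 0.22, adjusted p = 0.0253), and the call was lost whichever culture was left out (adjusted p from 0.0789 to 0.165). The genes his-3, his-6 and his-7 had log2 fold changes of -0.44, -0.13 and -0.10 and were not called.

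Ammonium assimilation was down-regulated in 4 of 5 genes (80%, against 12.8% of all genes), with a median log2 fold change of -1.26. The gene am, for the NADP-dependent glutamate dehydrogenase that makes glutamate from ammonium, had 46.6 and 57.7 CPM in Δclr-5, against 543 and 226 CPM in WT, a log2 fold change of -2.88 (SE 0.54, adjusted p = 0.00427). The glutamine synthetase gene gln-1 had 108 and 129 CPM in Δclr-5, against 377 and 349 CPM in WT, a log2 fold change of -1.62 (SE 0.18, adjusted p = 0.000121). The second glutamine synthetase gene, gln-2, had 992 and 1109 CPM in Δclr-5, against 2331 and 2531 CPM in WT, a log2 fold change of -1.21 (adjusted p = 0.00365). Of these genes only gln-1 kept its call whichever culture was left out. The glutamate synthase gene en(am)-2 was lower at -1.26 (adjusted p = 0.0255). The NAD-dependent enzyme of glutamate breakdown, encoded by gdh-1, had 3367 and 3733 CPM in Δclr-5, against 1967 and 2502 CPM in WT, a log2 fold change of 0.67 that missed the threshold (adjusted p = 0.0505). Calls were lost for am and gln-2 without Δclr-5 culture 1 (adjusted p = 0.0534 and 0.0511), and for en(am)-2 without Δclr-5 culture 1 (adjusted p = 0.163), Δclr-5 culture 2 (adjusted p = 0.0973) or WT culture 1 (adjusted p = 0.171).

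Amino acid uptake genes were lower in 4 of 9 cases (44.4%, against 12.8% of all genes) and higher in 1 (11.1%, against 8.27%). The permease gene NCU00711 had 7.42 and 8.77 CPM in Δclr-5, against 62.2 and 57.8 CPM in WT, a log2 fold change of -2.89 (SE 0.15, adjusted p = 1.24e-06). The general amino acid permease gene pmg had 356 and 349 CPM in Δclr-5, against 697 and 1093 CPM in WT, a log2 fold change of -1.34 (SE 0.20, adjusted p = 0.000923). Both genes were clearly separated between the strains and kept their calls without any 1 culture. NCU00721, annotated as a proline-specific permease, was lower at -1.18 (adjusted p = 0.00813), lost without Δclr-5 culture 1, Δclr-5 culture 2 or WT culture 2 (adjusted p = 0.0714, 0.0546 and 0.0662). NCU09458 was lower at -0.53, lost without Δclr-5 culture 1, Δclr-5 culture 2 or WT culture 1 (adjusted p = 0.103, 0.0652 and 0.0748). The gene aap-2, with 4.16 and 4.17 CPM in Δclr-5, against 2.84 and 1.98 CPM in WT, was higher at 0.78 (adjusted p = 0.0464), lost without Δclr-5 culture 1, Δclr-5 culture 2 or WT culture 2 (adjusted p = 0.172, 0.164 and 0.28). The basic amino acid permease gene pmb (-0.30) and the neutral amino acid permease gene mtr (-0.36) were not called.

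Amino acid biosynthesis was lower in parts. Among all genes 12.8% were lower and 8.27% were higher. The arginine genes (15.4% lower, 7.69% higher) and the branched-chain biosynthesis genes (14.3% lower) were near these shares. The aromatic (60% lower), serine and threonine (66.7%) and purine genes (60%) were above them, and the sulfur genes (6.67%) were below. Of 10 genes of aromatic amino acid biosynthesis, 6 were lower and none was higher, with a median log2 fold change of -0.79. The gene aro-6, for an enzyme of the first step of the shikimate pathway, had 33.5 and 40.5 CPM in Δclr-5, against 193 and 93.4 CPM in WT, a log2 fold change of -1.95 (adjusted p = 0.00404), and the tryptophan synthase gene trp-3 was lower at -1.81 (adjusted p = 0.0089). The number called was 2 without Δclr-5 culture 1, 4 without Δclr-5 culture 2, 3 without WT culture 1 and 7 without WT culture 2. The call of aro-6 was lost without Δclr-5 culture 1 (adjusted p = 0.0501), and that of trp-3 without Δclr-5 culture 1 (adjusted p = 0.0821) or WT culture 1 (adjusted p = 0.0583). Of 6 genes of serine and threonine metabolism, a list that holds NCU03607 and trp-3, 4 were lower, and without Δclr-5 culture 1 or WT culture 1 there were 2. Of 5 purine biosynthesis genes, which share precursors with histidine, 3 were lower with a median of -0.75, but none was called without Δclr-5 culture 1 or WT culture 1 and 2 were without Δclr-5 culture 2. Of 13 arginine genes, 2 were lower and 1 was higher, with 1 lower without Δclr-5 culture 1 or WT culture 1 and the higher one, arg-15 (0.92), lost whichever culture was left out (adjusted p from 0.0583 to 0.107). Of 15 genes of sulfur assimilation, methionine and cysteine, 1 was lower, cys-18 (-0.53), also lost whichever culture was left out (adjusted p from 0.0648 to 0.208). Of 7 genes of branched-chain biosynthesis, 1 was lower, leu-4, which encodes 2-isopropylmalate synthase of the leucine branch. It had 73.8 and 91.2 CPM in Δclr-5, against 293 and 263 CPM in WT, a log2 fold change of -1.75 (SE 0.20, adjusted p = 0.000142), and was called without any 1 culture. The 5 genes of branched-chain breakdown had log2 fold changes between -0.66 and 0.57. Those of the 4 genes of lysine biosynthesis lay between -0.51 and 0.09, and no gene of either list was called. The transcription factor gene cpc-1, the general regulator of amino acid biosynthesis, had 2789 and 3271 CPM in Δclr-5, against 5401 and 5303 CPM in WT, a log2 fold change of -0.82 (adjusted p = 0.0147), lost without Δclr-5 culture 1 (adjusted p = 0.141) or Δclr-5 culture 2 (adjusted p = 0.0596).

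Genes of the translation apparatus were lower by small folds in most of the lists. Where 12.8% of all genes were lower, the share was 62.1% for cytosolic ribosomal proteins, 44.4% for translation factors and 33.3% for aminoacyl-tRNA synthetases. It was 23.7% for complex I and ATP synthase, and 9.09% for ribosome biogenesis, which did not exceed that of all genes. Of 29 genes for cytosolic ribosomal proteins, 18 were lower, all 29 log2 fold changes were negative, from -1.14 to -0.28, and the median was -0.79. Typical members were crp-7, with 21.4 and 18 CPM in Δclr-5, against 40.7 and 36.2 CPM in WT (log2 fold change -0.96), and cyh-2, with 25.9 and 25.0 CPM in Δclr-5, against 47.5 and 42.3 CPM in WT (log2 fold change -0.82). The median ratio of WT culture 1 to WT culture 2 over the list was 0.50 on the log2 scale. The number called was 4 without Δclr-5 culture 1, 1 without Δclr-5 culture 2, 4 without WT culture 1 and 18 without WT culture 2. On the other media, 0 of the 29 were lower on ammonium nitrate (8.37% of all genes), with a median of -0.03, and 28 were lower on leucine, with a median of -1.0. In the main fit the interaction term called 3 of the 29 negative between histidine and ammonium nitrate, a share near that of all genes (9.03%). All of these called differences depended on single cultures. The median difference over the list was -0.81, or -0.51 without WT culture 1. The count depended on the method. DESeq2 called 12 negative on all 12 libraries and 7 on only the libraries compared, each with a median of -0.77. Library size scaling, which also moved the median of all genes to -0.29, gave 18 with a median of -1.01. Of 12 aminoacyl-tRNA synthetase genes, 4 were lower, among them the alanyl-tRNA synthetase gene NCU00535, with 40.6 and 35.2 CPM in Δclr-5, against 133 and 134 CPM in WT (log2 fold change -1.81, SE 0.15, adjusted p = 1.64e-05). The aminoacyl-tRNA synthetase genes called lower numbered 2 without Δclr-5 culture 2 or WT culture 1. Of 9 translation factor genes 4 were lower, with 1 without either Δclr-5 culture and 2 without either WT culture. Of 11 ribosome biogenesis genes 1 was lower, with 3 when WT culture 2 was left out and 0 when Δclr-5 culture 2 was. In 38 genes of respiratory complex I and ATP synthase all log2 fold changes were negative, with a median of -0.38, and 9 were called lower. That number was 3 without Δclr-5 culture 1, 0 without Δclr-5 culture 2, 12 without WT culture 1 and 1 without WT culture 2.

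**Figure D4:**
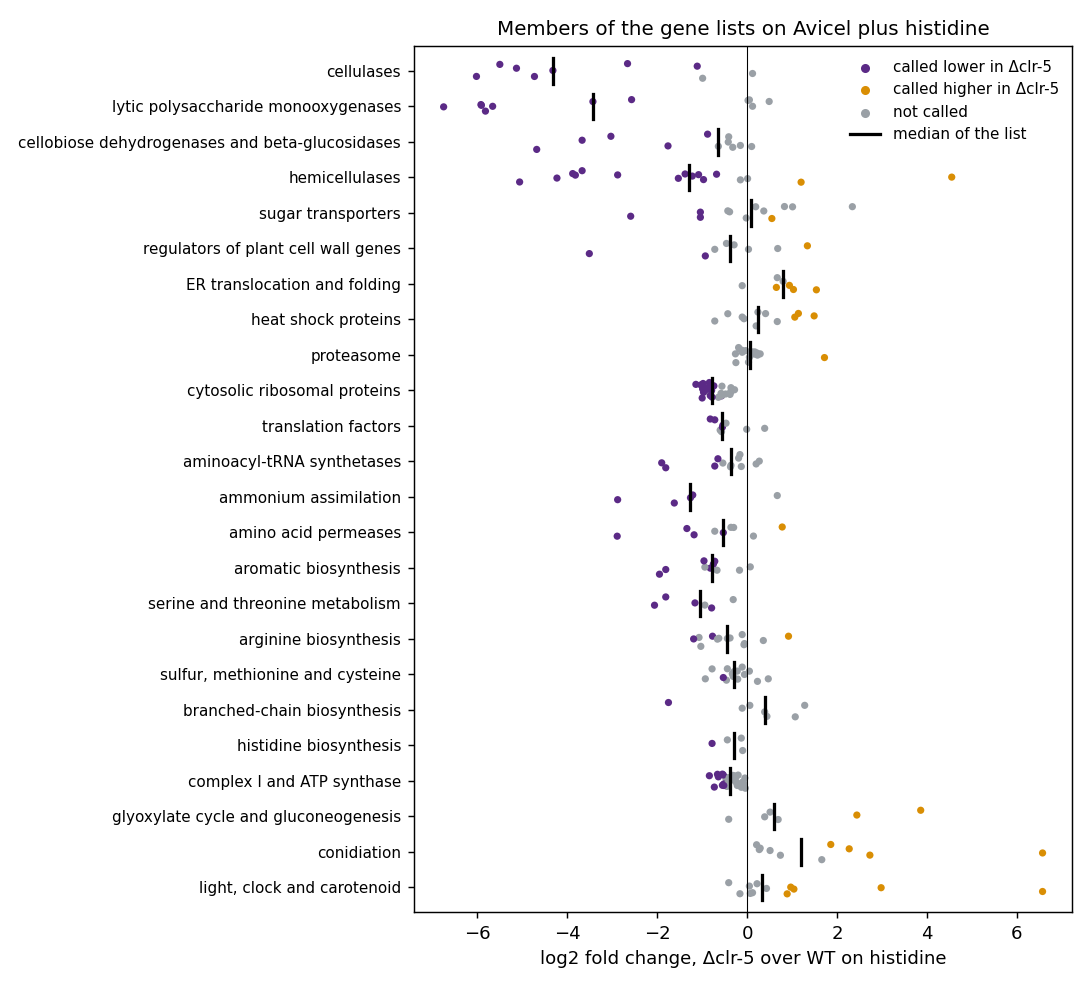
Log2 fold changes on histidine, Δclr-5 over WT, of the tested members of 24 gene lists, 1 point per gene, coloured by call, with a black bar at the median of each list. The medians of the cellulase and LPMO lists are -4.32 and -3.43, that of the ER list is 0.80, and most other lists lie within 1 log2 unit of 0.

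Genes of gluconeogenesis and of asexual development were among the increases. The phosphoenolpyruvate carboxykinase gene acu-6, for the entry step of gluconeogenesis, had 1194 and 1098 CPM in Δclr-5, against 45.9 and 112 CPM in WT, a log2 fold change of 3.86 (SE 0.66, adjusted p = 0.00285). The malate synthase gene acu-9, of the glyoxylate cycle, had 124 and 106 CPM in Δclr-5, against 12.5 and 29.9 CPM in WT, a log2 fold change of 2.44 (SE 0.42, adjusted p = 0.00265). In this list 2 of 6 genes were higher (33.3%, against 8.27% of all genes). The isocitrate lyase gene acu-3 (log2 fold change 0.69, adjusted p = 0.308) was not called.

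Conidiation genes were higher in 4 of 10 cases (40%, against 8.27% of all genes) and lower in none. Their median log2 fold change was 1.20. The gene eas (NCU08457; chromosome II, from 3570905 to 3572798), which encodes the hydrophobin that coats conidia and aerial hyphae, had 69562 and 59392 CPM in Δclr-5, against 539 and 816 CPM in WT. It was the most abundant transcript in both Δclr-5 libraries, with 8.3% and 6.99% of all counts, and had 0.0637% and 0.096% of the counts in WT. The log2 fold change was 6.57 (SE 1.01, adjusted p = 0.00159). The gene fl, for the main transcriptional activator of conidiation, had 195 and 166 CPM in Δclr-5, against 25.6 and 28.9 CPM in WT, a log2 fold change of 2.73 (adjusted p = 0.00584). The developmental gene acon-3 was higher at 2.27 (adjusted p = 0.0199) and con-8 at 1.86 (adjusted p = 0.00229). Other genes of conidiation were not called: con-6 (1.66), con-13 (0.74), acon-2 (0.51), csp-1 (0.29), con-10 (0.27) and csp-2 (0.21). The labels give mycelium for every library, and whether conidiating tissue contributed to these levels was not tested. Calls were lost for fl without WT culture 1 (adjusted p = 0.0578) or WT culture 2 (adjusted p = 0.0505), and for acon-3 whichever culture was left out (adjusted p from 0.0617 to 0.137). On ammonium nitrate 9 of the 10 were higher, with a median of 3.14, where 11.8% of all genes were higher, and on leucine 2 were, with a median of 0.43, where 8.77% of all genes were higher. The Δclr-5 cultures on ammonium nitrate were far apart, with 0.287% and 3.4% of all counts for eas, against 0.00876% and 0.0123% in WT.

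Light-regulated genes rose in part. Of 12 genes, eas included, 5 were higher (41.7%, against 8.27% of all genes) and none was lower. The median log2 fold change was 0.33. The gene al-3, for the geranylgeranyl diphosphate synthase of carotenoid synthesis, had 949 and 857 CPM in Δclr-5, against 102 and 127 CPM in WT, a log2 fold change of 2.98 (SE 0.50, adjusted p = 0.00265). Further increases were those of bli-4 (1.04, adjusted p = 0.00117), the carotenoid oxygenase gene cao-2 (0.97, adjusted p = 0.000821) and the phytoene synthase gene al-2 (0.89, adjusted p = 0.0111), the last of which was lost without Δclr-5 culture 1 (adjusted p = 0.0821) or WT culture 2 (adjusted p = 0.0889). The photoreceptor genes wc-1 (0.22), wc-2 (0.05) and vvd (-0.16) and the clock gene frq (0.12) were not called.

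**Figure D5:**
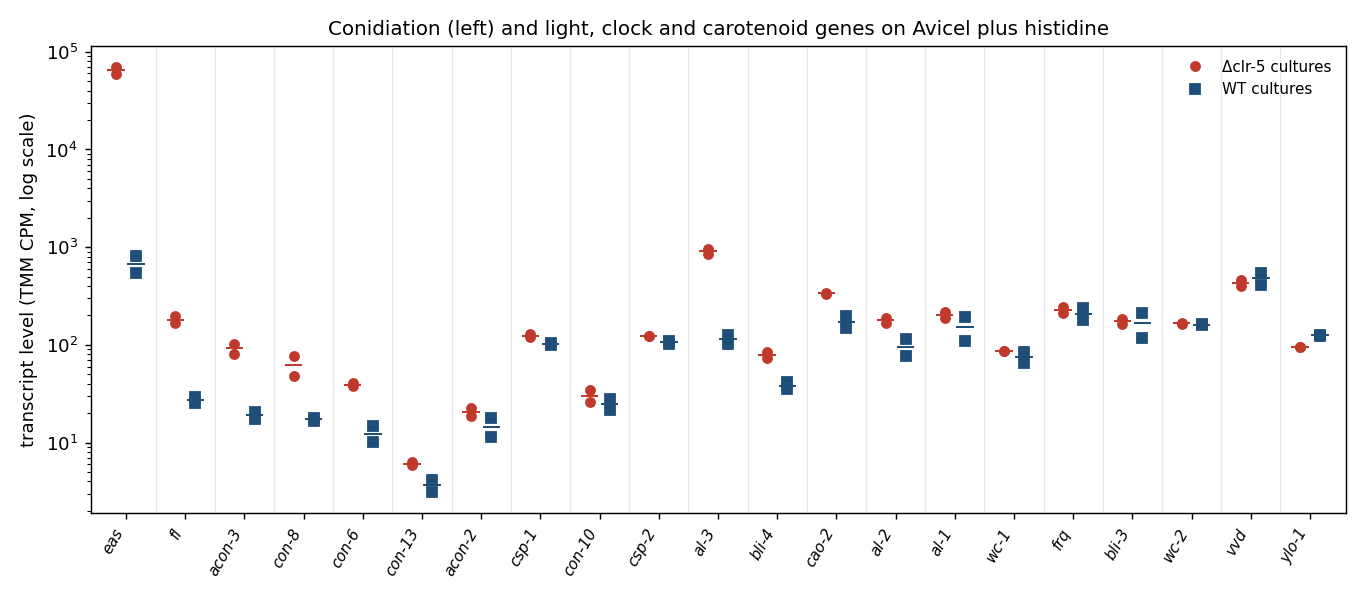
CPM on a log axis of 10 conidiation genes (left) and 11 light, clock and carotenoid genes (right) on histidine, 1 point per culture, Δclr-5 and WT. The strains are far apart for eas, with 69562 and 59392 CPM against 539 and 816 CPM, and for al-3, while genes such as con-10 and frq overlap.

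The strains also differed in transcripts of mating type, which the labels do not give. No count of the mating-type A gene matA-1 was found in either Δclr-5 library (0 and 0 CPM), against 59.3 and 47.0 CPM in WT. Taking 3 counts over both libraries as the floor, it was at least 779-fold lower. The gene ccg-4, for the pheromone precursor of mating type A, had 0.0429 and 0.194 CPM in Δclr-5, against 412 and 313 CPM in WT. The gene mfa-1, for the pheromone precursor of mating type a, had 929.6 and 1266 CPM in Δclr-5, against 3.12 and 2.91 CPM in WT, a log2 fold change of 8.50 (SE 0.58, adjusted p = 6.36e-06). NCU09968, for which no role is given, was likewise at 0 in Δclr-5, against 134 and 114 CPM in WT, at least 1822-fold lower with the same floor. Of 6 tested mating genes 4 were lower (66.7%, against 12.8% of all genes) and 2 were higher (33.3%, against 8.27%). The pheromone receptor gene pre-2 (1.70) lost its call without Δclr-5 culture 2 or WT culture 2. The differences in matA-1, ccg-4 and mfa-1 were not limited to histidine. On ammonium nitrate and on leucine matA-1 was also at 0 CPM in Δclr-5, ccg-4 was called lower, and mfa-1 was higher at 6.98 and 13.33. The effect of deleting clr-5 and that of other differences between the strains, mating type among them, cannot be told apart in these libraries.

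Among the 15 largest increases on histidine, several genes have no annotated role in the sources used here. NCU05858 had 1180 and 1133 CPM in Δclr-5, against 10.6 and 6.72 CPM in WT (log2 fold change 7.05), and its neighbour NCU05859 149 and 143 CPM in Δclr-5, against 2.48 and 1.63 CPM in WT (6.14). NCU05818 and NCU05819, also neighbours on chromosome VII, were higher at 6.68 and 6.20. NCU00290, an ABC transporter gene, had 1634 and 1251 CPM in Δclr-5, against 31.5 and 37.9 CPM in WT, a log2 fold change of 5.38 (SE 0.27, adjusted p = 1.24e-06). The polyketide synthase gene pks-3 had 2237 and 2030 CPM in Δclr-5, against 98.4 and 89.3 CPM in WT, a log2 fold change of 4.51 (SE 0.18, adjusted p = 4.59e-07). Increases of 4.37 to 5.75 were found for NCU09734, cut-1, NCU09167, NCU05098, NCU03011, NCU08469 and NCU07948. For all these genes the WT values were far below the Δclr-5 values. Among the 15 largest decreases, most were the LPMO, cellulase and xylanase genes given above. NCU08785, NCU07898 and NCU09764 had log2 fold changes of -6.29, -5.78 and -4.95. They are outside the LPMO list, which is not complete, so an LPMO gene may be among them. These last 3 lost their calls with edgeR on only the 4 histidine libraries (adjusted p = 0.0519, 0.106 and 0.134).

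Genes near the deleted locus were examined after their values had been seen. NCU05381, which ends at 1471060, just before the start of clr-5, had 724 and 666 CPM in Δclr-5, against 40.9 and 45.7 CPM in WT, a log2 fold change of 4.01 (SE 0.26, adjusted p = 4.99e-06). On the other side, NCU05384 was higher at 0.72 (adjusted p = 0.0195), lost without Δclr-5 culture 1 (adjusted p = 0.155), Δclr-5 culture 2 (adjusted p = 0.0519) or WT culture 1 (adjusted p = 0.143). Further away on the side of NCU05381, NCU05377 was higher at 1.06 (adjusted p = 0.00331). A direct effect of the altered locus on nearby genes and an effect of the missing protein cannot be told apart.

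The difference between Δclr-5 and WT varied between media for many genes. Between histidine and ammonium nitrate, the difference of the log2 fold changes was negative for 795 genes (9.03%) and positive for 468 (5.32%), so that 62.9% of the calls were negative, or 80.7% with scaling by library size alone. Between histidine and leucine it was negative for 576 genes (6.54%) and positive for 430 (4.88%), with 57.3% negative, or 78.8% with library size alone. That scaling moved the median difference over all genes to -0.29, against -0.08 with TMM, for ammonium nitrate, and to -0.31, against -0.06, for leucine. Without 1 histidine culture at a time, the negative calls against ammonium nitrate numbered 302 to 589 and the positive ones 169 to 321. Against leucine they numbered 243 to 434 and 185 to 292. Each lowest count was found without Δclr-5 culture 1 and each highest count without WT culture 1. Both contrasts use the same 4 histidine libraries.

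Cellulase and LPMO genes were among those with a called difference in the first of these contrasts. Of 9 cellulase genes, 5 had a more negative effect on histidine than on ammonium nitrate, and so did 6 of 11 LPMO genes (9.03% of all genes). The median differences were -3.21 and -2.26, or -2.48 and -1.28 without WT culture 1. On leucine, 7 cellulase genes (median -2.18) and 7 LPMO genes (median -1.77) were also lower (10.7% of all genes). The effect was called more negative on histidine than on leucine for 2 cellulase and 4 LPMO genes (6.54% of all genes). The median differences were -0.88 and -1.32, or -0.33 and -1.04 without WT culture 1. Besides cbh-1, the calls of gh7-1, gh61-4 and gh61-3 in this contrast depended on single cultures. With only the libraries compared, edgeR called 0 and 3, and DESeq2 3 and 6, besides 1 cellulase gene with a positive difference. The fold of cbh-1 was -5.50 on histidine, -0.72 on ammonium nitrate and -2.23 on leucine. Its difference from ammonium nitrate was -4.78 (adjusted p = 0.00618), and that from leucine was -3.27 (adjusted p = 0.0346), which was lost without Δclr-5 culture 1 (adjusted p = 0.143) or WT culture 1 (adjusted p = 0.106). Without Δclr-5 culture 1 the number of cellulase genes with a called difference from ammonium nitrate was 3, as gh6-2 (adjusted p = 0.053) and gh5-1 (adjusted p = 0.0602) were lost. Among the LPMO genes, gh61-2 lost its called difference whichever culture was left out (adjusted p from 0.0628 to 0.163).

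Some genes changed direction between media, or changed on histidine and little on another medium. The clock-controlled gene ccg-13 was lower on histidine at -1.56 and higher on ammonium nitrate and leucine at 4.43 and 3.91, with differences of -6.0 (adjusted p = 0.000113) and -5.48 (adjusted p = 0.000165). NCU07046 was higher on histidine, with 159 and 117 CPM in Δclr-5, against 10.3 and 9.63 CPM in WT (log2 fold change 3.79). It had folds of -0.53 on ammonium nitrate, which was not called, and -0.61 on leucine, which was called lower. NCU01424, a DUF636 family gene, had 659 and 593 CPM in Δclr-5, against 43.6 and 58.5 CPM in WT (3.62). Its folds of 0.11 and 0.29 on ammonium nitrate and leucine were not called. NCU01298 was lower on histidine at -1.65 and had a fold of 5.54 on leucine, a difference of -7.19 (adjusted p = 8.83e-07). NCU09664 had -4.35 on histidine and 0.05 on leucine, a difference of -4.40 (adjusted p = 0.0219) that was lost without Δclr-5 culture 1 (adjusted p = 0.099) or Δclr-5 culture 2 (adjusted p = 0.0806). Of the 1125 genes called lower on histidine, 201 were also called lower on ammonium nitrate (8.37% of all genes) and 399 on leucine (10.7%). Of the same 1125, 61 and 63 were called higher there (11.8% and 8.77% of all genes). Of the 728 called higher, 282 were also higher on ammonium nitrate and 201 on leucine, and 46 and 45 were lower. On all 3 media, 115 genes were lower and 126 were higher. On histidine and on neither other medium, 544 lower and 311 higher genes were called. A gene not called on a medium may still differ there, so these last counts do not show changes limited to histidine.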

How the data were processed

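The authors aligned 150 bp paired-end reads with TopHat (2.0.8b in the submitters' notes) and counted uniquely mapped reads with HTSeq 0.13.5. The strand setting is not given in the sources used here. The deposited values are raw counts per gene in a table of 12 libraries, with totals from 16797962 to 20381308. Genes were matched by locus to RefSeq symbols and NC12 coordinates (9729 of 9730). No reads were aligned again. Counts were filtered with filterByExpr, scaled by TMM and fitted with edgeR 4.0.16 (robust quasi-likelihood, R 4.3.3) over all 12 libraries and 6 groups, with 6 residual degrees of freedom (biological coefficient of variation 0.174). The thresholds are those of the study, which used DESeq. SE was obtained by dividing the size of the log2 fold change by the square root of F. Interaction terms compared media. Shares of counts cover counting error only. No block was used, since the replicate numbers do not pair the cultures.

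Named genes are clr-5, the 15 largest changes either way where the mean log2 CPM was 3 or more, list members, genes the study names and the 5 largest differences between media either way. Members and lists were chosen with earlier results of these data known. Alternatives were RLE and library size scaling, no filter, DESeq2 1.42.0, fits on only the libraries compared, the adjusted p alone, a replicate block and leaving out each histidine culture. No sequences are shown, since no sequence table was used here.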

Additional observations from a re-analysis of the deposited data

Results flagged for a closer look

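The fold change of Δclr-5 over WT differed between histidine and ammonium nitrate, by the test of the difference itself, for 1263 genes. Between histidine and leucine it differed for 1006 genes. Among the gene lists, the difference from ammonium nitrate was called negative for 5 of 9 cellulase and 6 of 11 LPMO genes (9.03% of all genes). It was called positive for 6 of 7 ER genes (5.32% of all genes), from a list the study chose for lower levels on ammonium nitrate. The difference from leucine was called positive for 6 of 7 ER genes (4.88% of all genes). It was also called for ccg-4, mfa-1 and pre-2, 3 of 6 mating genes, 2 negative and 1 positive (6.54% and 4.88% of all genes). The call of ccg-4 was lost without Δclr-5 culture 2. Leaving out single cultures lowered several of the counts, as given above. With 2 cultures per group, cultures were not tested for standing apart from their group.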

How the results depend on the processing

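None of the reported directions on histidine was reversed under any alternative. The numbers of genes lower and higher in Δclr-5 on histidine were 1125 and 728, and ranged from 549 to 821 and from 363 to 466 with 1 histidine culture left out. They stayed within 1.5 times those numbers under the other alternatives, with 1197 and 833 from DESeq2 and 1196 and 1079 from edgeR on the 4 histidine libraries. The differences from ammonium nitrate, 795 negative and 468 positive, became 1303 and 311 with library size scaling and 448 and 247 with edgeR on only the libraries compared, and ranged from 302 to 589 and from 169 to 321 with 1 culture left out. The differences from leucine, 576 and 430, became 989 and 266 with library size scaling, 978 and 879 with edgeR and 960 and 920 with DESeq2 on only the libraries compared, and ranged from 243 to 434 and from 185 to 292 with 1 culture left out. The causes were not tested. Of 286 results for named genes, 104 lost their call without Δclr-5 culture 1, 75 without Δclr-5 culture 2, 73 without WT culture 1 and 54 without WT culture 2, where the remaining culture was assumed to vary like the other groups. Another 50 lost it with edgeR on only the libraries compared, and 10 or fewer under each other alternative.

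Same-numbered cultures did not deviate together (r = -0.0953 on histidine, -0.237 on ammonium nitrate and -0.0641 on leucine), so the replicate numbers were not treated as pairs. With a replicate block, 1079 genes were lower and 706 higher on histidine, the differences were 742 and 452 from ammonium nitrate and 518 and 417 from leucine, and 10 named results lost their call.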

Other observations

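Called genes often stood next to each other on the chromosomes. Among tested genes in chromosomal order, 18 runs of at least 4 neighbours were lower and 9 were higher, and the number chance would give was not computed. On chromosome IV, from 513043 to 548863, NCU04861, NCU04862, pks-3, ada-6 and NCU04867 were higher at 2.33, 3.56, 4.51, 2.78 and 4.12, and they include a polyketide synthase gene and ada-6, for a transcription factor. In that run, NCU04862 had 761 and 618 CPM in Δclr-5, against 53.6 and 63.1 CPM in WT. Also on chromosome IV, from 5004406 to 5014555, NCU07043, NCU07044, NCU07046 and NCU07047 were higher at 3.27, 5.22, 3.79 and 6.11, of which NCU07044 had 50.5 and 30.2 CPM in Δclr-5, against 0.871 and 1.28 CPM in WT. On chromosome VII, NCU05818, NCU05819, NCU05820 and NCU05821 were higher by 1.56 to 6.68. A run of 4 lower genes on chromosome I, from 7121829 to 7132928, began with cdt-1, and a run of 4 on chromosome IV, from 477626 to 489777, held the cellulase gene gh7-2 and the glutamine synthetase gene gln-2 (-2.66 and -1.21). Calls were lost for ada-6 without WT culture 1 (adjusted p = 0.0528), for NCU04867 without Δclr-5 culture 1 (adjusted p = 0.0503) or WT culture 1 (adjusted p = 0.0618), and for NCU05821 without WT culture 1 (adjusted p = 0.063) or WT culture 2 (adjusted p = 0.0792), all in edgeR's quasi-likelihood test. These runs were chosen after their values were seen.

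A further 3 ER genes were picked because they were higher on histidine. Other ER genes were not counted, so nothing follows from them for ER genes as a group. NCU02074, annotated as ER oxidoreductin-1, which supplies oxidizing power for disulfide bonds, had 87.8 and 66.2 CPM in Δclr-5, against 24.2 and 19.0 CPM in WT (log2 fold change 1.84, adjusted p = 0.0271 in edgeR's quasi-likelihood test). The disulfide isomerase gene NCU00813 had 203 and 166 CPM in Δclr-5, against 96.0 and 71.3 CPM in WT (1.14, adjusted p = 0.0138). NCU00968, annotated as SIL1, a nucleotide exchange factor of the ER Hsp70, had 51.1 and 43.3 CPM in Δclr-5, against 26.3 and 24.3 CPM in WT (0.90, adjusted p = 0.0143). Without a single culture, calls were lost for NCU02074 in all 4 cases (adjusted p from 0.0655 to 0.172), for NCU00968 without Δclr-5 culture 1, WT culture 1 or WT culture 2 (adjusted p = 0.109, 0.0563 and 0.0872), and for NCU00813 without Δclr-5 culture 1 or WT culture 2 (adjusted p = 0.0974 and 0.11). On ammonium nitrate the log2 fold changes of NCU02074, NCU00813 and NCU00968 were -0.15, -0.92 and -1.61.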
